A study of Mus musculus with 4 samples.

Results

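The contraction machinery of myoepithelial cells, the outer layer of the mammary epithelium, was followed through 10 genes in RNA sequencing libraries of mouse mammary cells: Acta2, Actg2, Myh11, Mylk, Tagln, Cnn1, Lmod1, Des, Myocd and the oxytocin receptor gene Oxtr. They were found by symbol, all 10 were in the deposited table of 54393 genes, and all 10 were among the 18917 genes that passed the filter on low counts. The Dnp63 cKO (conditional knockout) group and the WT group had 2 libraries each, 1 taken 5 weeks and 1 taken 10 days after tamoxifen. DNp63, the form of p63 without the N-terminal activation domain, is the main form made in basal cells. The labels name the mice as iK14-Cre; DNp63 f/f, an inducible Cre under the keratin 14 promoter, and do not say which of these alleles WT animals carried. Tamoxifen (1.5 mg/ml) was given at 4 weeks of age, and the labels also mention glands of 5 and 35 weeks without tying these ages to libraries. Each library came from 100000 cells left after CD45, CD31 and Ter119 positive cells were removed. The number of animals behind a library is not given in the labels. With time in the model, the p-values rest on how far the genotype difference varied between the times, moderated over genes. Spread between animals and technical spread cannot be told apart from that variation.

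Myoepithelial cells squeeze milk out of the alveoli when oxytocin reaches the gland. Oxytocin binds its receptor, which signals through Gq and phospholipase C to release calcium, and calcium with calmodulin switches on myosin light chain kinase. Smooth muscle myosin then pulls on actin filaments, as it does in vessel walls, so most of these genes are shared with vascular smooth muscle. Serum response factor (SRF), bound to DNA elements called CArG boxes, drives many of them, in muscle together with its coactivator myocardin. Within the gland the oxytocin receptor is best known from myoepithelial cells, whereas desmin and myocardin are best known from muscle.

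Promoter sequences were available from RefSeq (build GRCm38.p6) for 6 of the 10 genes: Acta2, Mylk, Cnn1, Lmod1, Des and Oxtr. Each window holds 250 bases before and 50 bases from the start that RefSeq gives, which differs from the outermost start in GENCODE M21 behind the gene spans printed below. The RefSeq start lies 217 bases inside the GENCODE span for Acta2, 118 for Oxtr, 37 for Cnn1, 6 for Lmod1 and 39740 for Mylk, and 37 bases outside it for Des. The windows were searched for a relaxed CArG box, CCNNNNNNGG with at least 5 of the 6 inner bases A or T, which reads the same on both strands. Acta2 held 2 matches, beginning 84 and 34 bases before the RefSeq start and not overlapping, and the other 5 windows held none. Both matches lie within the longer GENCODE span of Acta2. At least 1 match stood in 9.98% and at least 2 in 0.822% of all 32851 windows of this length. A match is a description of letters, and a window without one shows only that these letters are not there. The promoters shown are those of the members the results turn on: Acta2 (chr19:34255324-34255623, minus strand), the most abundant; Oxtr (chr6:112489776-112490075, minus strand), the receptor; and Des (chr1:75360042-75360341, plus strand), whose levels ran the other way. Capitals mark the CArG matches.
Acta2: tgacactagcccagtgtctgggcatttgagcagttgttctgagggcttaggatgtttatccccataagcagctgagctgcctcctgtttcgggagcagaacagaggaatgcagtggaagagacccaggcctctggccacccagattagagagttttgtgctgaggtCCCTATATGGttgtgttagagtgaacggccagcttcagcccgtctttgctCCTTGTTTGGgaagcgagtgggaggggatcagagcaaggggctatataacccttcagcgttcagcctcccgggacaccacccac
Oxtr: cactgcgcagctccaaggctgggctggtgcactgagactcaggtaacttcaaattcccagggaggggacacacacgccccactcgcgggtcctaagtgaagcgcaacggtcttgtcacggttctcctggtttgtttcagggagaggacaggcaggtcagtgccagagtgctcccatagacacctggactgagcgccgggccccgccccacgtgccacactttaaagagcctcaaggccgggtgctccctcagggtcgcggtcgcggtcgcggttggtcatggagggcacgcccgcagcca
Des: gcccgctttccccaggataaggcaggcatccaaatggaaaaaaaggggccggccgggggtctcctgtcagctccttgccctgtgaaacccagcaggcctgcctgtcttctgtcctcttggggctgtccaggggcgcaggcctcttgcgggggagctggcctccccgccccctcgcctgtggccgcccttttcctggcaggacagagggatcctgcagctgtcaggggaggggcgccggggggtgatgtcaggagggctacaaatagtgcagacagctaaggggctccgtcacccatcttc

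Markers of other cell types were detected beside epithelial ones, and their summed levels differed between libraries. Total counts were 34230566 and 31714181 in cKO at 5 weeks and 10 days, against 79122250 and 33363255 in WT at 5 weeks and 10 days. Levels are given as CPM, counts scaled to library size with TMM factors, and pairs of values below are 5 weeks and then 10 days. Trp63, the gene carrying the deletion, was at 25.5 and 12.8 CPM in cKO, against 160.5 and 46.8 CPM in WT (log2 fold change -2.26, SE 0.267; edgeR quasi-likelihood adjusted p = 0.107). Summed levels of 18 basal epithelial markers outside the contraction machinery were 2861 and 3224 CPM in cKO, against 20879 and 6803 CPM in WT, with Krt5, Krt14 and Trp63 detected in every library. For 20 pericyte and vascular smooth muscle markers the sums were 1199 and 975 CPM in cKO, against 865 and 767 CPM in WT. For 12 fibroblast markers they were 56318 and 27163 CPM in cKO, against 24756 and 41402 CPM in WT. At 10 days 6 of these 12 were lower in cKO than in WT and 6 higher, so the sum there follows the most abundant of them. Stratified squamous markers, 12 genes, summed to 179 and 128 CPM in cKO, against 3903 and 784 CPM in WT.

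The genotype comparison asked whether the contraction genes differed between cKO and WT once the time point was held constant. In edgeR's quasi-likelihood test 0 of the 10 members passed an adjusted p of 0.05, where 0.0581% of all tested genes passed (0.0529% lower and 0.00529% higher in cKO). DESeq2, which called 2.71% of all genes, and limma-voom, which called 0.153%, also called 0 of 10. At an unadjusted p under 0.05 there was 1 member, Des, where 11.6% of all genes reached that level. Log2 fold changes of cKO over WT were below 0 for 6 members and above 0 for 4, with a median of -0.10, against -0.01 over all tested genes. Both cKO libraries lay below both WT libraries for 1 member (Tagln, with TMM scaling only), where 23.3% of genes did so. They lay above both for 2 (Des and Myocd), where 22.6% did. In these bulk libraries, fewer cells of a type and less RNA per cell cannot be told apart.

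The WT library at 10 days held the highest level of Acta2, Actg2, Myh11, Mylk, Tagln, Cnn1 and Oxtr. These are 7 of the 10 members, where 22.9% of tested genes peaked in that library. It also held the lowest level of Des and Myocd. The WT library at 5 weeks held the lowest level of Myh11, Mylk, Cnn1, Oxtr and Lmod1. The 10 genes together took 0.197% and 0.172% of all counts in cKO, against 0.171% and 0.303% in WT. Without WT at 10 days, and with no time term, 2 of 10 estimates were below 0 and the median was 0.13. Without WT at 5 weeks 8 of 10 were below 0 and the median was -0.39. That library also held the peak of 10 of 28 other smooth muscle contractile genes and 6 of 17 regulators of the myocardin and SRF axis. The same held for 7 of 27 genes of oxytocin signalling, with Oxtr and Mylk among them, and 3 of 11 non-muscle actin and myosin genes. Of the 18 basal markers 4 also peaked in WT at 10 days (Lama3, Lamb3, Sox10 and Id4). So did 3 of the 20 pericyte, 2 of the 12 fibroblast and 4 of the 13 luminal markers. Their part in the result was not tested.

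**Figure D1:**
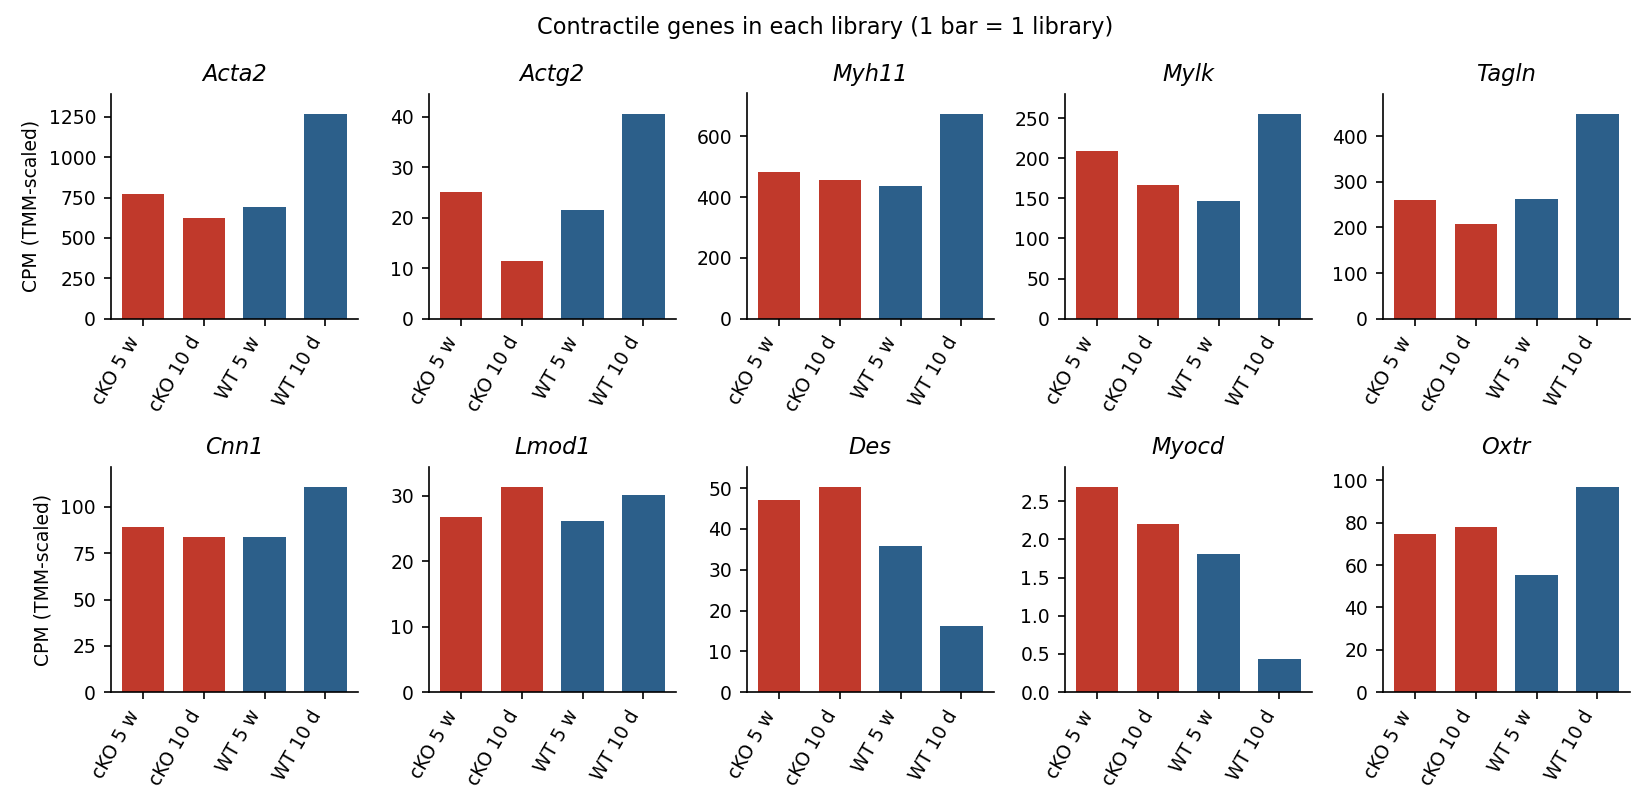
Level of each of the 10 genes in CPM (y axes, linear from 0) in the 4 libraries, cKO in red and WT in blue, each bar 1 library. WT at 10 days is the tallest bar for 7 genes, reaching 1267 CPM for Acta2, while Des (16.2 CPM) and Myocd (0.435 CPM) are lowest there.

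Among the filament proteins, Acta2 encodes smooth muscle alpha-actin, the usual marker of both myoepithelium and vascular smooth muscle (ENSMUSG00000035783.9, chromosome 19, 34241090 to 34255590, minus strand, GRCm38). Its level was 771.5 CPM in cKO at 5 weeks and 624.0 CPM in cKO at 10 days, against 690.3 CPM in WT at 5 weeks and 1267 CPM in WT at 10 days. The genotypes overlapped, with WT at 5 weeks between the 2 cKO libraries. Means were 698 ± 104 CPM in cKO and 979 ± 408 CPM in WT (SD over the 2 time points, n = 2 each). The log2 fold change was -0.43 (SE 0.388, 95% interval -1.40 to 0.54; edgeR adjusted p = 0.728), and without WT at 10 days it was 0.015.

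Actg2 encodes the gamma-actin of enteric smooth muscle (ENSMUSG00000059430.14, chromosome 6, 83512905 to 83536265, minus strand). It had 25.1 and 11.4 CPM in cKO, against 21.6 and 40.6 CPM in WT. The lowest library was cKO at 10 days, at a level 3.55-fold below WT at the same time, and the genotypes overlapped. Its log2 fold change was -0.80 (SE 0.590, 95% interval -2.46 to 0.86; edgeR adjusted p = 0.681). Coding sequences of the actin genes are closely alike, so how reads were divided between Acta2, Actg2 and the other actins is uncertain.

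Myh11, the myosin heavy chain of smooth muscle (ENSMUSG00000018830.10, chromosome 16, 14194535 to 14291372, minus strand), was at 484.1 and 456.1 CPM in cKO, against 437.8 and 673.5 CPM in WT. Both cKO libraries lay inside the range of the WT pair. Its log2 fold change was -0.21 (SE 0.299, 95% interval -0.95 to 0.54; edgeR adjusted p = 0.838), and 0.10 without WT at 10 days. Mylk, the kinase that phosphorylates myosin light chain (ENSMUSG00000022836.11, chromosome 16, 34745210 to 35002420, plus strand), was at 209.2 and 167.0 CPM in cKO, against 146.5 and 255.1 CPM in WT. Here too the cKO libraries lay inside the WT range. The estimate was -0.05 on the log2 scale (SE 0.330, 95% interval -0.89 to 0.79; edgeR adjusted p = 0.974). Leaving out WT at 10 days gave 0.36 and leaving out cKO at 10 days gave 0.041. Exons of Mylk overlap 2 antisense genes, E130310I04Rik over 548 bases and Gm21691 over 224 bases, and no source here says whether counting used strand.

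Of the proteins bound to actin, Tagln encodes transgelin, also called SM22 (ENSMUSG00000032085.5, chromosome 9, 45929619 to 45936058, minus strand). It was at 260.2 and 208.3 CPM in cKO, against 262.3 and 448.9 CPM in WT. Both cKO libraries were below both WT libraries, but at 5 weeks by less than the gap between the cKO libraries. This order held with TMM scaling only. With DESeq2, upper-quartile or library-size scaling, cKO at 5 weeks was just above WT at 5 weeks. The genotype estimate was a log2 fold change of -0.56 (SE 0.334, 95% interval -1.40 to 0.28; edgeR adjusted p = 0.584). Exons of Tagln overlap the antisense gene Gm48529 over 1241 bases and Pcsk7 on the opposite strand over 108 bases. Cnn1, the calponin of differentiated smooth muscle (ENSMUSG00000001349.5, chromosome 9, 22099216 to 22109630, plus strand), was at 89.2 and 83.9 CPM in cKO, against 83.7 and 110.5 CPM in WT. WT at 10 days stood above 3 nearly level libraries (log2 fold change -0.15, SE 0.214, 95% interval -0.69 to 0.38; edgeR adjusted p = 0.833). Without it the estimate was 0.047.

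Lmod1, a leiomodin that starts new actin filaments in smooth muscle (ENSMUSG00000048096.7, chromosome 1, 135324807 to 135368065, plus strand), was the most even of the 10 genes. It had 26.8 and 31.3 CPM in cKO, against 26.1 and 30.1 CPM in WT, a span of 1.20-fold between its highest and lowest library. The genotype estimate was a log2 fold change of 0.05 (SE 0.213, 95% interval -0.49 to 0.58; edgeR adjusted p = 0.958). Leaving out cKO at 10 days gave -0.085, and leaving out WT at 5 weeks gave -0.052.

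Des and Myocd had the opposite profile. Des encodes desmin, the intermediate filament protein of muscle cells, also made by pericytes (ENSMUSG00000026208.9, chromosome 1, 75360329 to 75368579, plus strand). It was at 47.2 and 50.1 CPM in cKO, against 35.7 and 16.2 CPM in WT, with no overlap between genotypes. The log2 fold change was 1.01 (SE 0.354, 95% interval 0.09 to 1.93), with an unadjusted p of 0.0370 and an adjusted p of 0.398 in edgeR. With no filter on low counts the edgeR adjusted p was 0.00524, in a fit that called 1235 genes (3.71% of those tested), and over all alternatives it ran from 0.00524 to 0.907. Without WT at 10 days the estimate was 0.45. Exons of Des overlap the antisense gene Gm15179 over 220 bases.

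Myocd encodes myocardin, the SRF coactivator of cardiac and smooth muscle (ENSMUSG00000020542.18, chromosome 11, 65176561 to 65269989, minus strand). Its level was 2.68 and 2.20 CPM in cKO, against 1.81 and 0.435 CPM in WT, again without overlap. These levels rest on 91 and 70 counts in cKO, against 139 and 15 counts in WT. The exact Poisson 95% interval of the 15 counts is 8.40 to 24.7, which covers counting error only. The log2 fold change was 1.37 (SE 0.582, 95% interval -0.08 to 2.83; edgeR adjusted p = 0.453), and 0.43 without WT at 10 days. Among 17 skeletal and cardiac muscle markers 6 did not pass the filter on low counts. The summed level of the list, below that of Des alone in every library, was 12.8 and 17.0 CPM in cKO, against 11.3 and 5.31 CPM in WT, lowest in the same library as Des and Myocd. The sum of pericyte markers was also lowest there, and the part of either list in the values of Des and Myocd was not tested.

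Oxtr, the receptor through which oxytocin starts contraction (ENSMUSG00000049112.9, chromosome 6, 112473683 to 112489943, minus strand), is the member best known from myoepithelium. Its level was 74.6 CPM in cKO at 5 weeks and 77.9 CPM in cKO at 10 days, against 55.5 CPM in WT at 5 weeks and 96.6 CPM in WT at 10 days. Both cKO libraries lay between the WT libraries. The means were 76.3 ± 2.36 CPM in cKO and 76.0 ± 29.1 CPM in WT (SD over the 2 time points, n = 2 each). The log2 fold change was 0.06 (SE 0.245, 95% interval -0.55 to 0.67; edgeR adjusted p = 0.951). The direction of this small estimate depended on single libraries. Leaving out WT at 10 days gave 0.46, leaving out WT at 5 weeks gave -0.34 and leaving out cKO at 10 days gave -0.045. Set beside the genes shared with vascular smooth muscle, the estimate of Oxtr stood above those of Acta2, Actg2, Myh11, Mylk, Tagln, Cnn1 and Lmod1 and below those of Des and Myocd. These differences between genes were not tested. The ratio of Acta2 to Oxtr, both as CPM per kilobase of exon, was 22.6 and 17.5 in cKO, against 27.1 and 28.6 in WT.

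Within each time point 1 library stood against 1, so no test was possible, and the direction depended on the time for most members. At 5 weeks the log2 ratio of cKO over WT was above 0 for 9 members, with a median of 0.19. None was beyond 2-fold in either direction (log2 ratio beyond 1), where 6.54% of genes were lower and 7.78% higher by that much. The highest ratios were 0.56 for Myocd and 0.51 for Mylk. Tagln, at -0.01, was the exception, and it was just above 0 with DESeq2, upper-quartile or library-size scaling.

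At 10 days the log2 ratio was below 0 for 7 members, with a median of -0.48. More than 2-fold lower in cKO were 3 members, Actg2 (-1.82), Tagln (-1.11) and Acta2 (-1.02), where 7.45% of genes were. More than 2-fold higher were 2 members, Myocd (2.23) and Des (1.63), where 7.89% of genes were. A ratio below 0 at 10 days together with one above 0 at 5 weeks was found for 6 members, and for 19.4% of all tested genes. The median ratio over all tested genes was -0.01 at 5 weeks and 0.00 at 10 days.

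**Figure D2:**
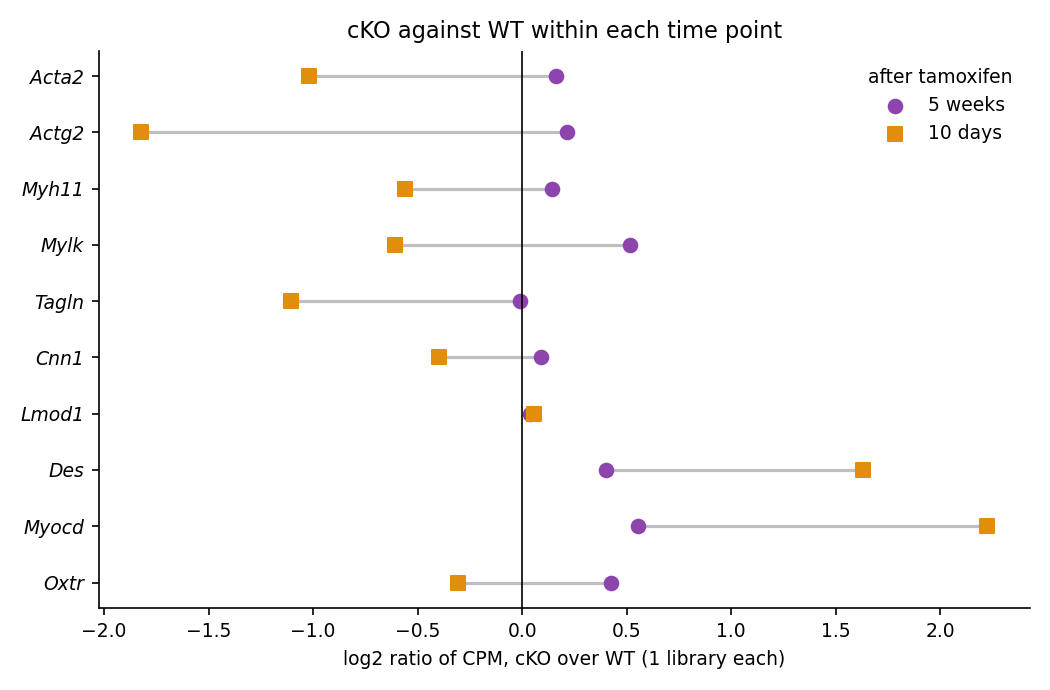
Log2 ratio of CPM, cKO over WT (x axis), for each member (y axis) at 5 weeks (circles) and at 10 days (squares), each from 1 library per genotype. At 5 weeks all lie between -0.01 and 0.56, whereas at 10 days they run from -1.82 for Actg2 to 2.23 for Myocd.

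The time comparison set 5 weeks against 10 days after tamoxifen with genotype held constant. In edgeR 0 of 10 members passed, where 0.0634% of genes did. None had an unadjusted p under 0.05, where 5.35% of genes did (2.27% lower and 3.09% higher at 5 weeks), and DESeq2 (1.01% of all genes) and limma-voom (0.206%) called 0 of 10. The median log2 fold change of 5 weeks over 10 days was -0.22, against 0.03 over all tested genes. Oxtr had the lowest estimate, -0.43 (SE 0.246), and Myocd the highest, 1.11 (SE 0.582). Within cKO the log2 ratio of 5 weeks over 10 days was 0.31 for Acta2, 1.13 for Actg2, -0.06 for Oxtr, -0.09 for Des and 0.28 for Myocd. Within WT it was -0.88 for Acta2, -0.91 for Actg2, -0.80 for Oxtr, 1.14 for Des and 1.95 for Myocd. These ratios come from the same 4 libraries as the genotype ratios and are not separate evidence.

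Levels of different genes were compared per length, as CPM per kilobase of exon averaged over the 4 libraries. Acta2 was first at 382 CPM per kb, followed by Tagln at 148, Myh11 at 67.5 and Cnn1 at 33.6 CPM per kb. Mylk (17.3), Oxtr (15.9) and Actg2 (15.8) came next and differed by less than their ranges over libraries, which for Oxtr ran from 11.6 to 20.2 CPM per kb. Des (9.93) and Lmod1 (7.24) followed, with overlapping ranges, and Myocd was last at 0.277 CPM per kb. With the longest transcript in place of all exons, Actg2 passed Oxtr and the other ranks were as before.

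Each smooth muscle gene was also given as a share of its family, summed as CPM per kb within a library, so that scaling between libraries plays no part. Acta2 made up 14.8% and 10.3% of 6 actin genes in cKO, against 9.86% and 21.4% in WT. Myh11 made up 51.4% and 47.4% of the sum with the non-muscle genes Myh9 and Myh10 in cKO, against 45.6% and 53.4% in WT. Cnn1 made up 22.3% and 22.1% of 3 calponin genes in cKO, against 20.9% and 27.9% in WT. Tagln made up 39.1% and 32.1% of the sum with Tagln2 in cKO, against 30.7% and 51.6% in WT. For these 4 genes both cKO shares lay between the WT shares. Actg2 made up 0.679% and 0.267% of the 6 actin genes in cKO, against 0.435% and 0.968% in WT. Its share in cKO at 10 days was below both WT shares.

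**Figure D3:**
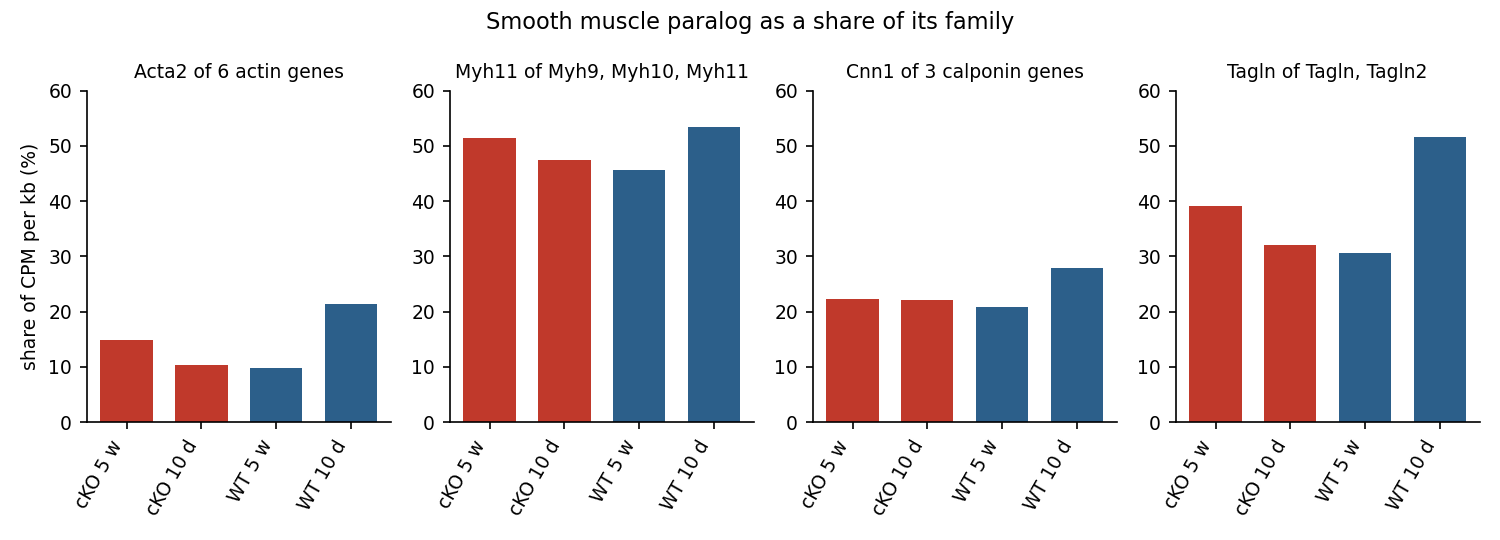
Share of the smooth muscle gene in its family (y axes, percent of summed CPM per kb, from 0) in the 4 libraries, cKO in red and WT in blue, each bar 1 library. WT at 10 days is highest and WT at 5 weeks lowest in each panel, for Acta2 at 21.4% and 9.86%.

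Beyond the 10 members, 28 other smooth muscle contractile genes had a median log2 fold change of 0.02. In edgeR 0 of them passed (at an unadjusted p under 0.05, 2 were lower and 4 higher in cKO, where 5.8% of all genes were in each direction), and DESeq2 and limma-voom called 0. The smallest p-values belonged to Fhl1 (log2 fold change 0.80) and Csrp2 (0.88), LIM-domain proteins, to Synpo2 (0.68), an actin-binding protein of muscle, and to Pdlim3 (-1.10), a PDZ-LIM protein that binds alpha-actinin. Pdlim3 was at 55.3 and 58.5 CPM in cKO, against 77.7 and 192.6 CPM in WT, highest in the same library as Acta2. Csrp2 was at 87.1 and 55.1 CPM in cKO, against 58.7 and 24.0 CPM in WT, lowest in that library.

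Of the regulators of the myocardin and SRF axis, 17 of 18 were tested, with Myocd among them. The median was -0.03 and 0 passed in edgeR, DESeq2 or limma-voom (3 higher at an unadjusted p under 0.05 in edgeR, where 5.8% of all genes were). Gata6, a transcription factor of smooth muscle among other tissues, was at 20.9 and 17.8 CPM in cKO, against 10.3 and 8.83 CPM in WT (log2 fold change 1.01, SE 0.250; edgeR adjusted p = 0.284). The muscle transcription factor gene Mef2c had 0.82, the TGF-beta receptor gene Tgfbr2 had 0.64, and Yap1, a coactivator of TEAD factors, had -0.20.

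On the route from the oxytocin receptor to myosin light chain, 27 genes were tested, with Oxtr and Mylk among them. The median was 0.06 and 0 passed in edgeR, DESeq2 or limma-voom (2 higher at an unadjusted p under 0.05 in edgeR, close to the 5.8% of all genes). Lnpep, the aminopeptidase that degrades oxytocin, was at 125.1 and 82.7 CPM in cKO, against 63.7 and 55.7 CPM in WT (log2 fold change 0.77, SE 0.207; edgeR adjusted p = 0.310). Plcb4, which encodes a phospholipase C, had 0.69. Of 11 non-muscle actin and myosin genes 0 passed in the 3 tools, with 1 lower at an unadjusted p under 0.05 in edgeR (5.8% of all genes) and a median of -0.21. Pfn1 (-0.58) and Cfl1 (-0.39), regulators of actin assembly, the myosin light chain gene Myl12b (-0.36) and the tropomyosin gene Tpm3 (0.23) had the smallest p-values.

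The basal epithelial markers outside the contraction machinery had a median log2 fold change of -1.41, against -0.10 for the 10 members. In edgeR 0 of 18 passed, but 14 were lower at an unadjusted p under 0.05, where 5.8% of all genes were lower. DESeq2 called 11 of the 18, all lower, where it called 1.46% of all genes lower, and limma-voom called 0 of 18. Both cKO libraries lay below both WT libraries for 15 of 18, where 23.3% of all genes did so. Trp63, which carries the deletion, is 1 of the 18 and is counted in the 14 and in the 15. Cdh3, a cadherin of basal cells, was at 19.5 and 17.8 CPM in cKO, against 103.9 and 64.4 CPM in WT (log2 fold change -2.14, SE 0.238; edgeR adjusted p = 0.0949). The Notch ligand gene Jag2 had -1.78 and the laminin gene Lamb3 had -1.37. Estimates were negative for 16 of the 18 and positive for 2, Dst (0.01) and Egfr (0.49). Summed stratified squamous markers were also lower in cKO (179 and 128 CPM, against 3903 and 784 CPM in WT). The part of squamous cells in the basal values was not tested, nor was the difference between the lists.

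Pericyte and vascular smooth muscle markers, from cells that share the contraction genes and that the sort did not target, had a median of 0.58. In edgeR 0 of 20 passed and 4 were higher at an unadjusted p under 0.05, where 5.8% of all genes were higher. DESeq2 called 1 (2.71% of all genes) and limma-voom 0 (0.153%). Both cKO libraries lay above both WT libraries for 12 of 20, where 22.6% of all genes did so. Abcc9, a potassium channel subunit of pericytes, was at 100.2 and 96.2 CPM in cKO, against 52.6 and 35.5 CPM in WT (log2 fold change 1.18, SE 0.220; edgeR adjusted p = 0.217). Kcnj8, which encodes the pore of that channel, had 0.92, the guanylate cyclase gene Gucy1a1 had 0.81 and the amine oxidase gene Aoc3 had 0.69. Among 12 stratified squamous markers, with a median of -3.73, edgeR called 4 lower in cKO (Krt13, Krt6b, Krtdap and Dsg3). It called 0.0529% of all genes lower. Medians were 0.53 for 10 endothelial, 0.41 for 12 fibroblast, 1.14 for 11 tested skeletal and cardiac muscle, 0.06 for 13 luminal and 0.80 for 10 tested leukocyte and red cell markers, with 0 passing in edgeR.

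**Figure D4:**
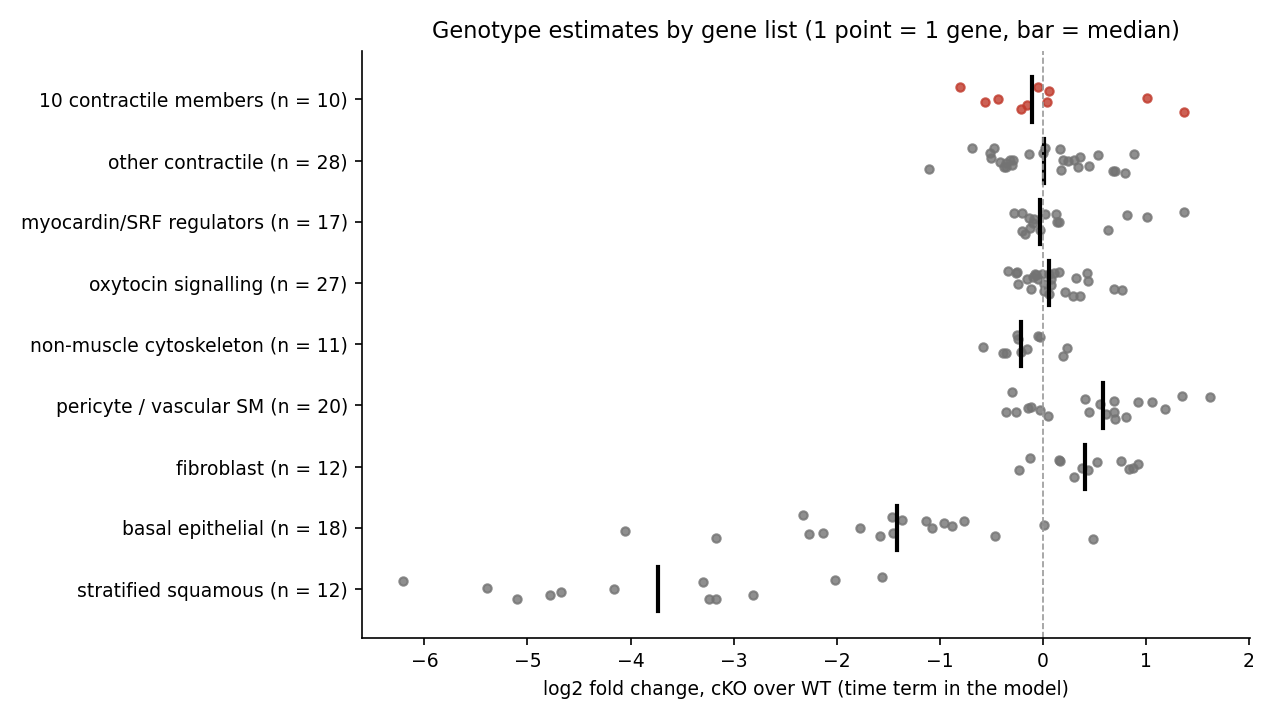
Log2 fold change of cKO over WT from the model with a time term (x axis) for the genes of 9 lists (y axis), each point 1 tested gene and each black bar the list's median. The 10 contractile members centre on -0.10, the basal epithelial markers on -1.41 and the pericyte and vascular smooth muscle markers on 0.58.

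Ratios within a library set the contraction genes directly against these markers, free of scaling between libraries. Acta2 over Krt5, as CPM per kb, was 3.27 and 5.08 in cKO, against 0.0883 and 1.25 in WT. Oxtr over Krt5 was 0.145 and 0.291 in cKO, against 0.00325 and 0.0435 in WT. Both cKO libraries were above both WT libraries, and WT at 5 weeks was lowest. That library had the highest sums of both basal and stratified squamous markers, and the part of squamous cells in these ratios was not tested.

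The ratios to Krt14 and Trp63 had the same order of genotypes. Trp63 carries the deletion, and Krt5 and Krt14 were themselves lower in cKO (log2 fold changes -4.05 and -3.17). Higher ratios in cKO thus restate these lower denominators and are not separate evidence. Over Krt14, Acta2 was 1.92 and 1.21 in cKO, against 0.0849 and 0.620 in WT, and Oxtr was 0.0853 and 0.0695 in cKO, against 0.00313 and 0.0217 in WT. Over Trp63, Oxtr was 5.13 and 10.6 in cKO, against 0.606 and 3.62 in WT. Of the 18 basal markers as denominators, both cKO ratios were above both WT ratios for 10 with Acta2 and for 16 with Oxtr, and below both for 1 with either (Egfr). Of the 20 pericyte markers as denominators, both cKO ratios of Acta2 were below both WT ratios for 13 and the genotypes overlapped for 7. With Oxtr they were below for 5, above for 2 and overlapped for 13. How often other genes as denominators give such orders was not computed, so these counts have no background beside them. Of the markers themselves, 15 of the 18 basal ones were lower and 12 of the 20 pericyte ones higher in both cKO libraries than in both WT libraries. The orders of the ratios thus restate these denominators in part and are not separate evidence. Rgs5, a pericyte marker, is shown as an example, chosen after its values were seen. Acta2 over Rgs5 was 11.2 and 15.9 in cKO, against 22.7 and 37.6 in WT, lower in both cKO libraries. Oxtr over Rgs5 was 0.498 and 0.908 in cKO, against 0.836 and 1.31 in WT, with overlap. No test was made of the ratios, because with 2 libraries against 2 an exact two-sided permutation test cannot give a p below 0.333.

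**Figure D5:**
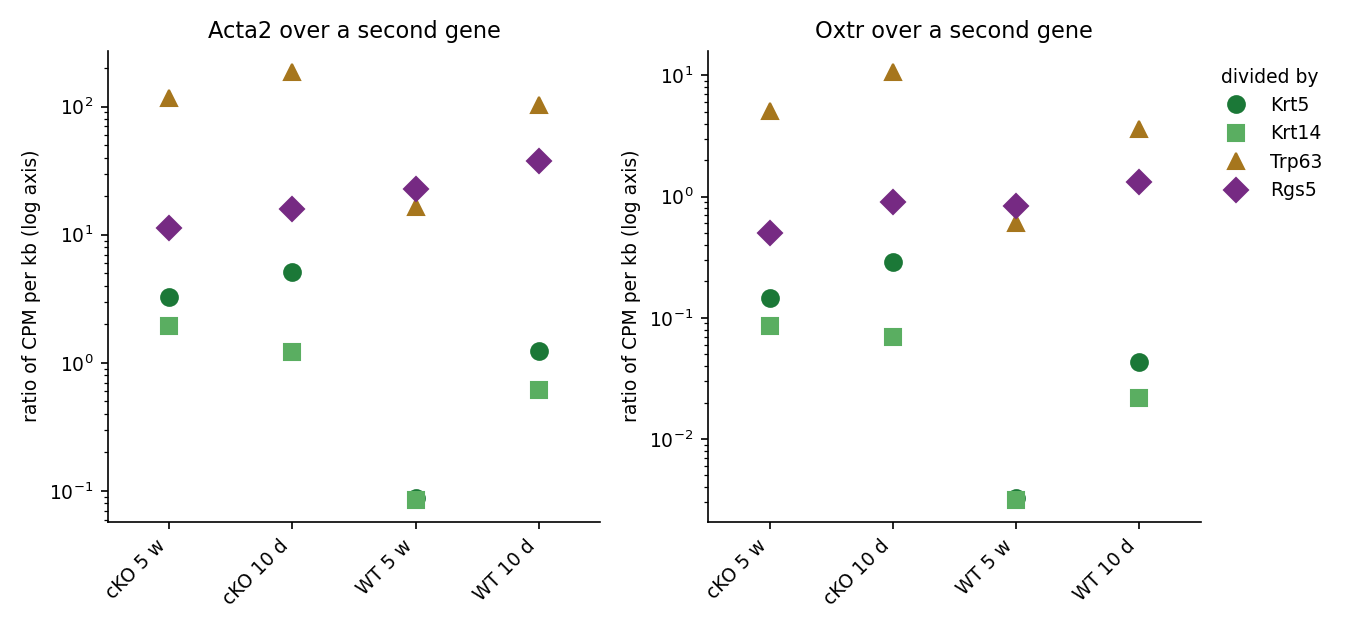
Ratio of CPM per kb (y axes, log scale) of Acta2 (left) and Oxtr (right) to Krt5, Krt14, Trp63 and Rgs5 in the 4 libraries, each point 1 library. Acta2 over Krt5 is 3.27 and 5.08 in cKO, above WT at 5 weeks (0.0883) and at 10 days (1.25), whereas Acta2 over Rgs5 is lower in both cKO libraries.

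Genes with profiles most like those of Acta2 and Oxtr were ranked by the distance between log2 CPM values centred on each gene's mean over the 4 libraries. The ranking held 9814 tested genes of at least 10 CPM on average, without names that begin Gm and a digit or end in Rik. Myocd, at a mean below 10 CPM, was not ranked. Closest to Acta2 were Pgpep1, Tmem229b, Zswim6, Slmap and Panx1, at distances of 0.04 to 0.13 on the log2 scale. Of the members Tagln came at rank 8, Myh11 at 102, Mylk at 187, Cnn1 at 328 and Oxtr at 676. Actg2 (1775), Lmod1 (2843) and Des (9550) came later. Closest to Oxtr were Arl13b, Caprin2, Zbtb38, Plekha4 and Mdk, at 0.06 to 0.11. Of the members Mylk came at rank 208, Myh11 at 257, Cnn1 at 479, Lmod1 at 882 and Acta2 at 2196. Tagln (4060), Actg2 (8797) and Des (9430) came later. The profile of the receptor was thus nearer to those of Mylk, Myh11, Cnn1 and Lmod1 than to that of Acta2. The ranking is a description over 4 libraries.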

How the data were processed

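RNA was sequenced from sorted mouse mammary cells in 4 libraries, 1 for each genotype at each time. The deposited file holds estimated counts per gene, as whole numbers. The submitters' processing notes name Salmon and GRCm38, giving no roles. The authors' annotation and strand setting are not stated there or in the labels. All 54393 identifiers matched GENCODE M21, which gave symbols, positions and exon lengths, and where a symbol had several identifiers the one with most counts was taken.

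Genes were kept by filterByExpr (minimum count 10). Library factors were TMM. edgeR 4.0.16 in R 4.3.3 fitted time and genotype together with robust quasi-likelihood, leaving 1 residual degree of freedom, and adjusted p-values are Benjamini-Hochberg values for 18917 genes (threshold 0.05). Standard errors follow from the size of the log2 estimate and F, as estimate over root F. Ratios within a time point added a prior count of 2. The time term acts as the replicate block, because the replicates of a genotype are its time points. DESeq2 1.42.0, limma-voom (limma 3.58.1), other scalings, no filter, no block and leaving out each library were tried as alternatives. Leaving out libraries for the time term was chosen after seeing the data, as were the ratios and the family shares. So were the basal markers named for their peak in WT at 10 days or for a positive estimate. Scripts were tested on simulated data.

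The members and gene lists were chosen with earlier results of these data known. All members are named, and so, for the 4 pathway lists and the basal and pericyte lists, are genes that passed and the 4 of at least 5 mean CPM with the smallest p. From other marker lists only genes passing for genotype are named. Some genes that this rule takes from the oxytocin list are not reported here.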

Additional observations from a re-analysis of the deposited data

Results flagged for a closer look

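For 6 members the log2 ratio of cKO over WT had opposite signs at the 2 times. With 1 library per genotype at each time, the difference was not tested. In the genotype fit, such a difference between the times is part of what the error is estimated from. For Acta2 it was 0.16 at 5 weeks and -1.02 at 10 days. Actg2 had 0.21 at 5 weeks and -1.82 at 10 days. Myh11 had 0.15 at 5 weeks and -0.56 at 10 days. Mylk had 0.51 at 5 weeks and -0.61 at 10 days. Cnn1 had 0.09 at 5 weeks and -0.40 at 10 days, and Oxtr had 0.43 at 5 weeks and -0.31 at 10 days. These signs were the same with a prior count of 0.5 and under the 3 other scalings tried.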

How the results depend on the processing

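For genotype, edgeR called 11 genes, against 5 with DESeq2 size factors, 3 with upper-quartile factors, 1235 with no filter on low counts, 513 in DESeq2 and 29 in limma-voom. With no replicate block (no time term) the count was 0, and 2182 genes had an unadjusted p below 0.05. Of the members 1, Des, was called with no filter and 0 under the other alternatives. For time, edgeR called 12 genes, against 638 with no filter, 192 in DESeq2, 39 in limma-voom and 1 with no genotype term. The time estimate of Actg2, 0.10, was -0.064 in limma-voom and -0.16 with no genotype term. Leaving out each library in turn, which also drops the block, gave 0 to 61 genes for genotype and 0 to 19 for time.

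Over these left-out libraries the genotype estimate ran from -0.86 to 0.015 for Acta2, from -0.52 to 0.10 for Myh11, from -0.44 to 0.36 for Mylk (0.041 without cKO at 10 days), from -0.35 to 0.047 for Cnn1, from -0.34 to 0.46 for Oxtr (-0.045 without cKO at 10 days) and from -0.085 to 0.15 for Lmod1 (-0.052 without WT at 5 weeks). Those of Actg2, Tagln, Des and Myocd kept their sign. The time estimate ran from -0.83 to 0.24 for Acta2, from -0.83 to 1.04 for Actg2 (-0.051 without WT at 5 weeks and -0.29 without cKO at 5 weeks), from -0.58 to 0.023 for Myh11, from -0.55 to 0.10 for Mylk, from -0.39 to 0.050 for Cnn1, from -0.81 to 0.33 for Tagln and from -0.27 to 1.32 for Des. These fits have fewer samples by construction, and otherwise the cause was not tested. The median of the members' genotype estimates ran from -0.39 to 0.13 over the left-out libraries and from -0.13 to -0.07 over the other alternatives. With 2 libraries per genotype, the 95% intervals above bound what could be seen, and for Myocd the counts add to this limit.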
